A study of Mus musculus with 16 samples.

Results

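The genes described are 38 small subunit processome and nucleolar factors. They are the members of a ribosomal RNA processing list with Utp14a and Utp14b left out. The rule itself uses no measured value, but the list was proposed with earlier results of these data known. All 38 were among the 32207 genes of the count table, and all 38 were among the 16339 genes with enough counts to be tested. They comprise 6 subunits of the UTP-A complex (also called t-UTP), 6 of UTP-B, 2 of UTP-C, 4 proteins of box C/D and U3 small nucleolar RNPs, the MPP10 complex with Utp3 (4 genes), Bms1 and Rcl1, 8 other processome factors, 4 box H/ACA proteins, and the nucleolar proteins Ncl and Npm1.

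The small subunit processome is a very large particle that forms on the nascent ribosomal RNA precursor as RNA polymerase I transcribes it. The U3 small nucleolar RNA pairs with the precursor, the UTP complexes hold the folding RNA, and cleavages around and inside the precursor then release the small subunit. Box C/D and box H/ACA particles guide methylation and pseudouridylation of the same RNA. Because every new ribosome needs these factors, their transcripts are often followed as a readout of growth, and a cell that makes myelin has a heavy load of protein synthesis.

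RNA was sequenced from brain oligodendrocytes of OF-1 mice at postnatal day 16, after brains were dissociated and O4-positive cells were pulled out with magnetic beads. O4 marks late precursors and oligodendrocytes. The 16 libraries form 4 groups of 4: control males, control females, and males and females exposed to bisphenol A (BPA) through their mothers from gestational day 7 and on through lactation. The exposure is labelled as 40 µg/kg/day, with BPA at 250 µg/mL in the water; the pair does not correspond at an ordinary water intake, so the scale of the dose was not settled. OF-1 is an outbred stock, no genotype was altered in any group, and the controls are labelled only as controls. Litter and batch are not labelled; pups of 1 mother share her exposure, so p-values for BPA may be too small and measure the spread between these libraries.

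Total counts ran from 23603816 to 42575326 per library. Levels are given as CPM, counts brought to 1 common library size after TMM scaling. The cells carried their labelled identity, with the 10 myelinating oligodendrocyte markers summing to between 118600 and 167700 CPM. RNA of other cells was also present, since no marker of any list was at 0 in a library. Erythroid markers (5 genes) summed to between 825.2 CPM in male BPA 4 and 4897 CPM in female BPA 1. Astrocyte markers (9 genes) summed to 6340 CPM in male BPA 2 and to between 947.8 and 2515 CPM in the other 15 libraries. Microglia markers (12 genes) were highest in female BPA 1, at 2574 CPM, within a range that began at 597.1 CPM. In bulk RNA, fewer cells of a type and less RNA per cell cannot be told apart.

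Promoter sequences show what the members carry ahead of their start sites. Of the 38 members, 31 matched an entry in RefSeq (build GRCm38.p6), and the 250 bases before the annotated start were searched on both strands for 5 short motifs. The ETS-type motif CCGGAAG was present ahead of 12 of the 31 members (38.71%), compared with 12.79% of 11716 promoters of tested genes and 7.05% of all 27025 promoters. The 12 genes were Gar1, Utp3, Bms1, Emg1, Mphosph10, Utp4, Pwp2, Nhp2, Utp18, Nol10, Heatr1 and Pdcd11, which spread over 6 of the 9 roles. The E-box CACGTG, a site that Myc and related factors can bind, lay ahead of 4 members (12.9%), Imp4, Utp18, Nol11 and Rrp7a, against 8.15% of tested promoters. CCAAT was found ahead of 14 members (45.16%, against 36.1%), GGGCGG ahead of 21 (67.74%, against 57.83%) and TATAAA ahead of 3 (9.68%, against 6.59%). None of these 5 motifs contains another. These shares are descriptions of letters in a window, not of binding. Utp6, Fbl, Nol6, Dcaf13, Tbl3, Npm1 and Wdr36 had no entry.

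The 5 promoters shown belong to members named in the comparisons that follow, and were chosen after their values were seen. The sequence ahead of each can be read beside its values. Capitals mark the E-box, ETS-type and CCAAT matches, on either strand. Rrp7a is at chr15:83122802-83123051 on the minus strand, Pwp2 at chr10:78185150-78185399 (minus), Nop56 at chr2:130274162-130274411 (plus), Bms1 at chr6:118419418-118419667 (minus) and Nol11 at chr11:107189382-107189631 (minus).
Rrp7a: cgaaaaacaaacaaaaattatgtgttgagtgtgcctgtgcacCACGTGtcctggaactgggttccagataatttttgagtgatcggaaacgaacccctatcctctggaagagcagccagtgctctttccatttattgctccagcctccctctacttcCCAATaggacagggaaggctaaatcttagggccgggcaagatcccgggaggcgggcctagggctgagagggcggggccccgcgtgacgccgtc
Pwp2: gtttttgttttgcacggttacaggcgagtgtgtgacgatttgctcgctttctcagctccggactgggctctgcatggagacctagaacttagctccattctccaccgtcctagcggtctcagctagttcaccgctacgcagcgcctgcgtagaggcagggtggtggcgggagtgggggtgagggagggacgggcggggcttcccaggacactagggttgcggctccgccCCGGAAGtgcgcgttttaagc
Nop56: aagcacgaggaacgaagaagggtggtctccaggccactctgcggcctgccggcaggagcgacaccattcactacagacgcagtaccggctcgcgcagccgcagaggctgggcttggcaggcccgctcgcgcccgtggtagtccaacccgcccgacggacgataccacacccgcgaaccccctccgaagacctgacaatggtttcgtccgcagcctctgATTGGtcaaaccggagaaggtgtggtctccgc
Bms1: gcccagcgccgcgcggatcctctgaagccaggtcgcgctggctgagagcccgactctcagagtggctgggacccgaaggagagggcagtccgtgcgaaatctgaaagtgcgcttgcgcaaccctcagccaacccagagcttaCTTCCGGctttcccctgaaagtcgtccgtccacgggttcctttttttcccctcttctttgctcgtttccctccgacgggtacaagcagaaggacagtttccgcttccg
Nol11: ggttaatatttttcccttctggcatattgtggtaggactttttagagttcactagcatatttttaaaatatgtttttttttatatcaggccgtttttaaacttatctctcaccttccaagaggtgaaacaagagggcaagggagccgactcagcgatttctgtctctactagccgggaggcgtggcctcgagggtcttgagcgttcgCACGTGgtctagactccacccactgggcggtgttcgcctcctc
In Rrp7a the E-box ends 203 bases before the start, and a CCAAT ends 89 bases before it. In Nol11 the E-box ends 38 bases before the start. The ETS-type match lies close to the start in Pwp2 (15 bases) and farther out, on the opposite strand, in Bms1 (102 bases). Nop56 holds a reversed CCAAT that ends 28 bases before its start.

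Several members also carry other nucleolar RNA genes inside them. In GENCODE M21, 5 of the 38 members (13.158%) hold a small nucleolar RNA on their own strand, compared with 228 of 14148 protein-coding genes tested (1.612%). Nop56 holds 5, Nop58 holds 4, Wdr43 and Ncl hold 3 each and Dkc1 holds 1, for 16 in all. Named ones include Snord57 and Snord110 in Nop56, Snord70 and Snord11 in Nop58, and Snord82 and Snora75 in Ncl. Poly(A) libraries do not measure such short RNAs, so their levels are not given.

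The members were expressed in every library, and most at a moderate level. Mean CPM was between 10 and 50 for 35 of the 38. Ncl, the histone-binding and ribosomal RNA-binding protein nucleolin, was the exception above that range at 194.7 CPM, from 176.2 to 210.8 across the 16 libraries. Fbl, the methyltransferase fibrillarin, and Gar1, a box H/ACA protein, were the exceptions below it. Fbl stood at 2.97 CPM, from 2.37 to 3.71, and its lowest library held 75 counts, the fewest of any member.

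The order of levels per length depends on the transcript length taken. Per kb of the longest coding transcript in GENCODE M21, Imp3 of the MPP10 complex was highest, at 39.02 ± 2.99 CPM per kb (SD, n = 16), and its lowest library (31.95) lay above the highest library of Ncl (25.7). Ncl followed at 23.7 ± 1.08 CPM per kb. Npm1, the nucleolar chaperone nucleophosmin, at 20.02 ± 2.74, and the ribosomal RNA methyltransferase Emg1, at 19.7 ± 1.06, overlapped in range. At the low end Utp20, a long scaffold protein, had 2.22 ± 0.187, Fbl 2.48 ± 0.365 and Nop58, a core box C/D protein, 2.57 ± 0.219 CPM per kb, and these 3 did not separate. In the authors' own per-kb values, which divide by the median length of annotated transcripts, Ncl came first at 7780 ± 353 normalized counts per kb and Nol6, of UTP-C, next at 1985 ± 103, while Pwp2 (120.5 ± 7.66) and Fbl (148.2 ± 21.6) came last. The length used for Ncl was 8.202 kb in the first order and 0.8575 kb in the second, so the position of single genes in either order is uncertain. Ncl was among the first 2 and Fbl among the last 2 in both.

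**Figure D1:**
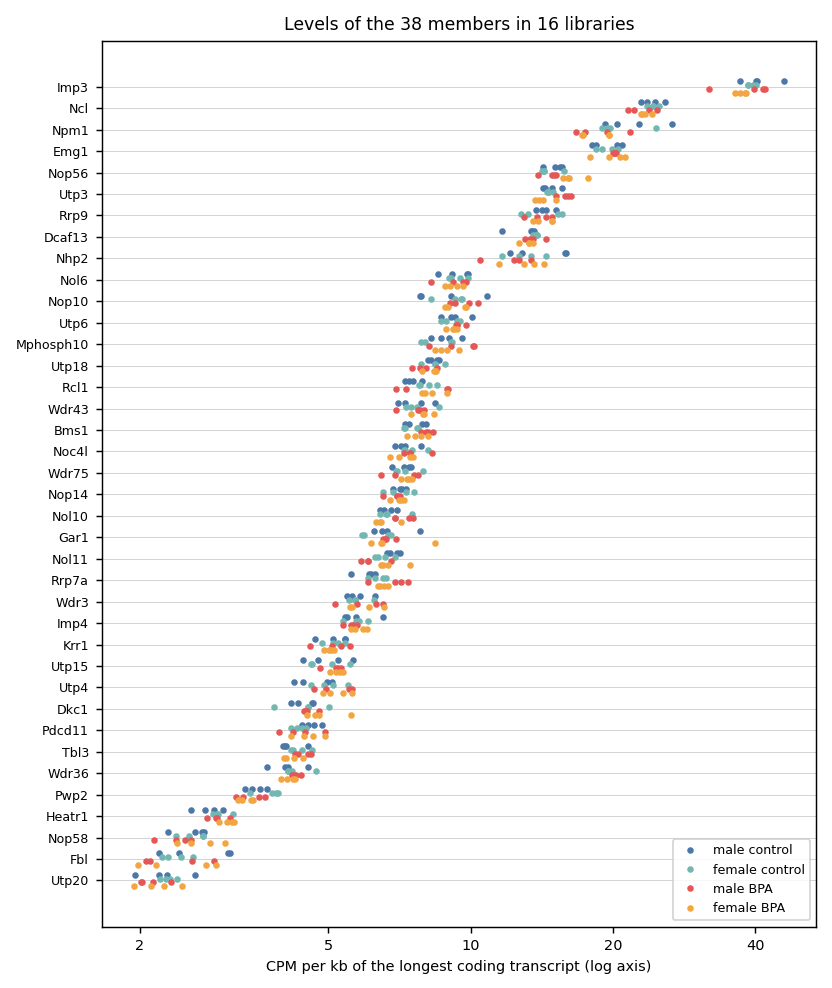
Levels of each of the 38 members in each of the 16 libraries, as CPM per kb of the longest coding transcript on a log axis; every point is 1 library, coloured by group, and genes are ordered by mean. The 4 groups lie over each other for nearly every gene, and the distance between genes, from 2.22 CPM per kb in Utp20 to 39.02 in Imp3, is far wider than that between groups.

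The members varied little between the libraries of a group. Their residual SD, the spread within groups on the log2 scale, had a median of 0.0827, compared with 0.1725 over all genes tested, and 37 of the 38 were below that all-gene median. The members' median level was also higher, at 20.89 CPM against 13.09, and spread falls with level, so the lower SD was not set apart from level here. Utp3, a protein of the early processome known as Sas10 in yeast, was the steadiest at 0.0502, running from 22.25 to 26.5 CPM over the 16 libraries. Bms1, a GTPase of the processome, followed at 0.0558, with a highest library only 1.153 times its lowest. Over the members, that ratio of highest to lowest library had a median of 1.245. It was largest in Npm1 (1.602), Fbl (1.562) and Nhp2 of the box H/ACA particle (1.514). Fbl was the member above the all-gene median of the residual SD, at 0.1895.

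As a set, the members stayed near their group means in each library. The median deviation of the 38 members from their group mean ran from -0.030 (male control 2) to 0.049 (female control 3) on the log2 scale. The same median over all genes tested had a narrower range, from -0.016 (male BPA 1) to 0.007 (male BPA 2). The summed level of the members ran from 971.1 CPM in male BPA 2 to 1038 CPM in male control 3. Male BPA 2 was the library with the lowest value for 9 of the 38 members, more than any other library. Imp3 was among these, at 29.52 CPM against 33.4 in the next lowest library. The same count over all genes was not made, but male BPA 2 also stood apart over all genes tested. Its chi-square per gene, a squared difference set against counting error, was 92.09 to 140.3 with the other male BPA libraries. Other pairs of libraries within a group had values from 16.19 to 35.67.

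**Figure D2:**
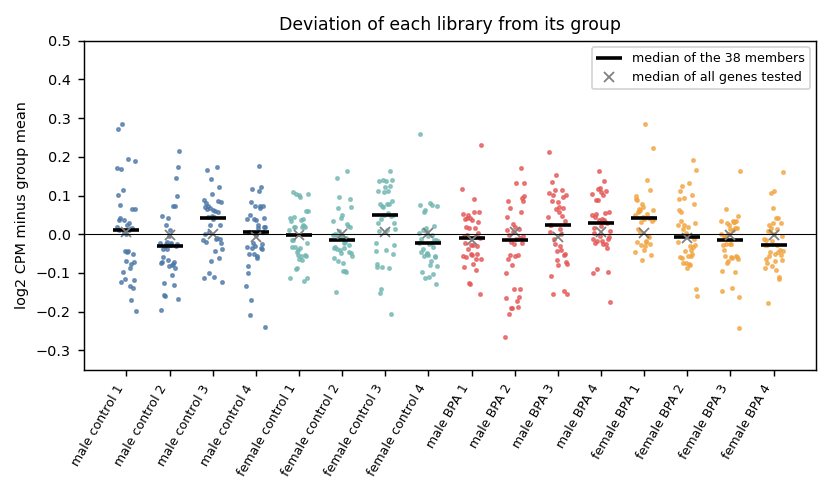
Deviation of each of the 38 members (points) from the mean of its own group in every library, on the log2 CPM scale, with the median of the members (bar) and of all genes tested (cross). The medians of the members lie between -0.030 and 0.049, and male BPA 2 has a tail of low members.

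The first comparison asks whether transcripts of the members differ in oligodendrocytes after early BPA exposure, averaged over both sexes. No member was called: limma-voom with Benjamini-Hochberg adjustment over all genes gave 0 of 38 members an adjusted p under 0.05, where it called 3 of 16339 genes (0.0184%). At an unadjusted p under 0.05 there were 2 members, against 7.69% of all genes, and a limma fit with a mean-variance trend also called 0 members with 2 at that unadjusted level. Over the alternatives for which it was taken, this unadjusted count ran from 1 to 4 members. The members split into 20 higher and 18 lower with BPA, with a median log2 fold change of 0.0054, beside 0.003 over all genes. Single members ran from -0.21 to 0.11. The median size of a member's log2 fold change, regardless of sign, was 0.0439, beside 0.0739 over all genes.

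These estimates were narrow. For 37 of the 38 members the 95% interval of the fold change lay within a 25% change either way (a ratio of 1.25, a bound chosen after seeing the data), as it did for 53% of all genes tested. Changes of the members beyond that size, averaged over both sexes, therefore lie outside the intervals of all but Npm1, whose interval on the log2 scale ran from -0.38 to -0.04. The intervals treat the libraries as independent, so unlabelled litters may make them too narrow. No member had control and BPA libraries that failed to overlap, where 0.0857% of all genes did.

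**Figure D3:**
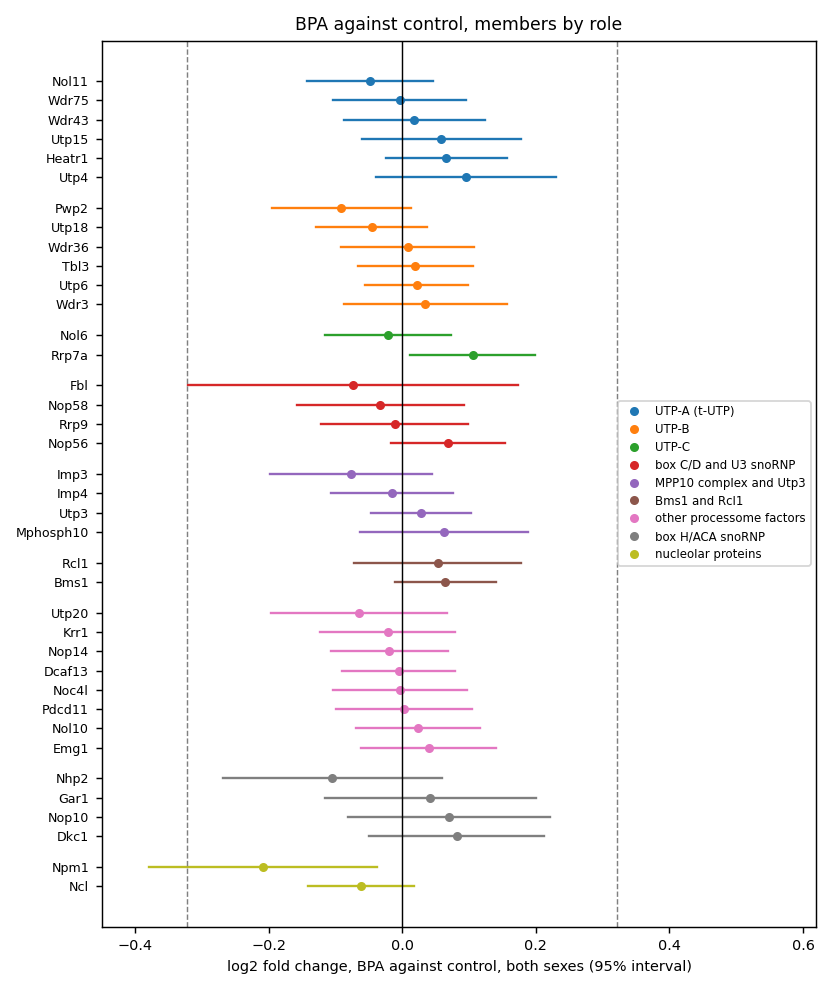
Log2 fold change of BPA against control over both sexes for each member, with its 95% interval, ordered by role; dashed lines mark a ratio of 1.25 either way. Of 38 intervals, 37 stay within the dashed lines and that of Npm1 extends below them.

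Among the nucleolar proteins, Npm1 (ENSMUSG00000057113) had the largest difference of any member. Control males had 43.6, 31.3, 33.2 and 36.98 CPM and BPA males 31.7, 27.2, 35.5 and 28.5 CPM. Control females had 30.98, 32.1, 31.6 and 40.3 CPM and BPA females 31.98, 31.97, 28.1 and 28.2 CPM. The groups overlapped in both sexes, and the control means were raised by male control 1 and female control 4, the highest libraries of their groups. The log2 fold change over both sexes was -0.21 ± 0.08 (SE), with an unadjusted limma-voom p of 0.0196 and an adjusted p of 0.538. It was -0.18 without male BPA 2 (adjusted p 0.578). Of the 50-base words in Npm1 transcripts, 24.3% also occur in 10 processed pseudogenes, which together held 4.898 CPM, so its counts are uncertain.

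Ncl had a median of 199.4 CPM in the 8 controls (188.3 to 210.8) and 190.4 CPM in the 8 BPA libraries (176.2 to 203.2). The ranges overlapped through most of their length. Its log2 fold change was -0.06 ± 0.04, with a limma-voom adjusted p of 0.753. The lowest library was again male BPA 2, and without it the value was -0.05.

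Of the UTP-C pair, Rrp7a (ENSMUSG00000018040), which contacts the small subunit precursor together with Nol6, had the second smallest p. Its control males stood at 26.8, 24.4, 27.4 and 26.6 CPM, and its BPA males at 31.2, 26.5, 30.2 and 32.1 CPM. In females it stood at 28.5, 27.3, 28.9 and 26.4 CPM in controls and at 27.99, 27.8, 28.6 and 29.2 CPM with BPA. In males 3 BPA libraries were above every control and male BPA 2 was not, while the females overlapped. The log2 fold change over both sexes was 0.11 ± 0.04 (limma-voom p 0.0306, adjusted p 0.571). Nol6 was at -0.02 ± 0.04. Rrp7a shares 7.28% of its 50-base words with 1 pseudogene, and it overlaps Serhl on the opposite strand. The libraries keep strand information, but whether counting used it is not given in the sources used here, so reads of overlapping genes may not be told apart. Other members also overlap opposite-strand genes: Heatr1, Wdr43, Nol11, Tbl3, Wdr3, Wdr36, Nop56, Rrp9, Imp4, Nop14, Emg1, Krr1, Dcaf13, Pdcd11, Dkc1 and Nhp2.

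In UTP-B, the complex that carries Pwp2, Tbl3, Utp6, Utp18, Wdr3 and Wdr36, 4 members were higher and 2 lower, between -0.09 and 0.03. Pwp2 (ENSMUSG00000032834), a WD-repeat scaffold, was the lowest of them, with 12.9, 13.4, 13.9 and 14.3 CPM in control males and 13.8, 14.2, 12.8 and 12.4 CPM in BPA males. In females the controls had 15.1, 14.7, 15.03 and 13.2 CPM and the BPA libraries 13.3, 12.7, 13.4 and 12.5 CPM. Only female control 4 kept the female groups from separating. Its log2 fold change over both sexes was -0.09 ± 0.05 (limma-voom adjusted p 0.716).

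UTP-A, which joins the precursor first and is also needed for its transcription in yeast and human cells, had 4 members higher and 2 lower. Utp4 was highest at 0.10 ± 0.06 and Nol11 lowest at -0.05 ± 0.04, and Heatr1 (0.07), Utp15 (0.06), Wdr43 (0.02) and Wdr75 (-0.004) lay between them. None had an unadjusted p under 0.05.

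Among the U3 and box C/D proteins, Nop56 (ENSMUSG00000027405), a core scaffold protein, had a log2 fold change of 0.07 ± 0.04, and its partner Nop58 one of -0.03 ± 0.06. Fbl, which carries the methyltransferase activity of these particles, was at -0.07 ± 0.12, with a median of 2.90 CPM in controls (2.63 to 3.71). Leaving out 1 library moved it to between -0.12 (female BPA 1 left out) and -0.01 (female BPA 3 left out). For Nop58 the same range was -0.06 to 0.01, with female BPA 2 and female BPA 3 left out respectively. The interval of Fbl, from -0.32 to 0.17, was the widest of the members, and 19.0% of the 50-base words of Fbl recur in other genes. Rrp9, which binds U3 RNA, was at -0.01 ± 0.05. None of the 4 was called.

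The remaining processome factors stayed in a narrow band. In the MPP10 complex, Mphosph10 was at 0.06 ± 0.06, Imp3 at -0.08 ± 0.06 and Imp4 at -0.02 ± 0.04, and Utp3 was at 0.03 ± 0.04. Bms1 and its partner Rcl1 were both on the higher side, at 0.06 ± 0.04 and 0.05 ± 0.06. Bms1 had a median of 32.83 CPM in controls (31.33 to 34.94) and its limma-voom adjusted p was 0.720. The 8 other factors ran from -0.06 (Utp20) to 0.04 (Emg1), and the values of Pdcd11 (0.003), Noc4l (-0.003), Dcaf13 (-0.005), Nop14 (-0.02), Krr1 (-0.02) and Nol10 (0.02) fell between. Pdcd11, known as Rrp5 in yeast, works in the assembly of both subunits there.

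The box H/ACA proteins, which carry out pseudouridylation and also belong to telomerase, had 3 members higher and 1 lower. Dkc1, the pseudouridine synthase dyskerin, was at 0.08 ± 0.06, and at 0.05 without female control 3 or without female BPA 2. Nop10 was at 0.07 ± 0.07 and Gar1 at 0.04 ± 0.07. Nhp2 was at -0.10 ± 0.08. All 4 had adjusted p-values of 0.824 or more by limma-voom.

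In males alone, 0 of 38 members were called by limma-voom, where 1 of 16339 genes was (0.00612%). At an unadjusted p under 0.05 there were 3 members, against 7.96% of all genes, and 2 with the mean-variance trend, which also called 0. The unadjusted count ran from 1 to 4 over the alternatives, leaving out a fit on males alone, for which it was not taken. Markers of earlier oligodendrocyte stages were mostly on the lower side in BPA males, though none was called. Lower values were found for 9 of 9 precursor markers (median log2 fold change -0.38, 3 with an unadjusted p under 0.05). They were also found for 6 of 7 committed and newly formed markers (median -0.26, 4 with such a p). Myelinating markers went the other way, with 8 of 10 higher (median 0.0546, 0 with such a p). Summed precursor markers ran from 2687 to 3023 CPM in control males and from 1928 to 2678 CPM with BPA, and committed markers from 13520 to 15490 and from 11340 to 13220 CPM, without overlap in either list. Their part in the values of the members was not tested. Rrp7a was 0.18 ± 0.06 higher on the log2 scale (p 0.0123, adjusted p 0.496, limma-voom). Without male BPA 2 its value was 0.24, with an adjusted p of 0.195, the lowest of the members named in males over the alternatives tried. Npm1 was at -0.26 ± 0.11 (adjusted p 0.596). It was at -0.20 without male BPA 2 and at -0.16 without male control 1, its highest library. Nhp2 had 16.6, 13.4, 16.5 and 12.6 CPM in control males and 12.9, 10.9, 13.97 and 13.2 CPM with BPA, a log2 fold change of -0.23 ± 0.11 (adjusted p 0.642). Without male BPA 2, which held its lowest value, this was -0.15.

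Nol11 (ENSMUSG00000018433), a UTP-A subunit, was also in this group. Control males had 21, 21.3, 22.4 and 22.02 CPM, and BPA males had 18.5, 21.5, 19.1 and 19.2 CPM. Male BPA 2 lay among the controls and the other 3 lay below all of them. The log2 fold change was -0.14 ± 0.06 (limma-voom p 0.0389, adjusted p 0.595), and -0.19 without male BPA 2. Over the 38 members, 18 were higher and 20 lower in males, with a median of -0.0051. No member had male groups that did not overlap, where 4.45% of all genes did, and 33 members had an interval within the 1.25 bound, as did 39.4% of all genes.

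In females, again 0 of 38 members and 0 of 16339 genes (0%) were called by limma-voom. There were 2 members with an unadjusted p under 0.05, against 4.55% of all genes, and 2 with the mean-variance trend, which called 0. The unadjusted count was 1 or 2 under every alternative but a fit on females alone, for which it was not taken. In females 9 of 9 precursor markers were on the higher side (median 0.16, 0 with an unadjusted p under 0.05). Myelinating markers were lower in 9 of 10 (median -0.0712, 0 with such a p). The precursor sum was highest in female BPA 2, at 3907 CPM. The remaining 3 libraries of that group spanned 2029 to 2849 CPM and the control females 2288 to 2807 CPM. The part of these markers in the values of the members was not tested. Nop56 had 26.8, 26.8, 29.6 and 26.5 CPM in control females and 30.3, 33.3, 30.2 and 29.4 CPM in BPA females. Its ranges overlapped only by female control 3, which stood just above female BPA 4. The log2 fold change was 0.17 ± 0.06 (p 0.00846, adjusted p 0.999), and 0.14 without female BPA 2, its highest library. Processed pseudogenes and other genes share 18.6% of the 50-base words of Nop56, though the 6 listed in the table summed to 0.1101 CPM, and Idh3b overlaps it on the opposite strand.

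Pwp2 was at -0.15 ± 0.07 in females (limma-voom p 0.0423, adjusted p 0.999), Dkc1 at 0.13 ± 0.09 and Npm1 at -0.16 ± 0.11. The last value became -0.07 without female control 4. That of Dkc1 was 0.07 without female control 3, 0.08 without female BPA 2 and 0.20 without female control 2. Of the 38 members, 23 were higher and 15 lower, with a median of 0.0159. All 6 UTP-A members were on the higher side, between 0.01 and 0.08, as were all 4 box C/D and U3 proteins, and none of the 10 but Nop56 had an unadjusted p under 0.05. In 2 members the female groups did not overlap, where 3.33% of all genes did. Imp3 ran from 35.57 to 37.04 CPM in controls and from 33.4 to 35.32 with BPA, and Dcaf13, the Sof1 protein of yeast, from 21.05 to 21.43 in controls and from 19.65 to 20.97 with BPA. Their log2 fold changes were -0.07 ± 0.08 and -0.06 ± 0.06. For 35 members the interval lay within the 1.25 bound, as for 42% of all genes.

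**Figure D4:**
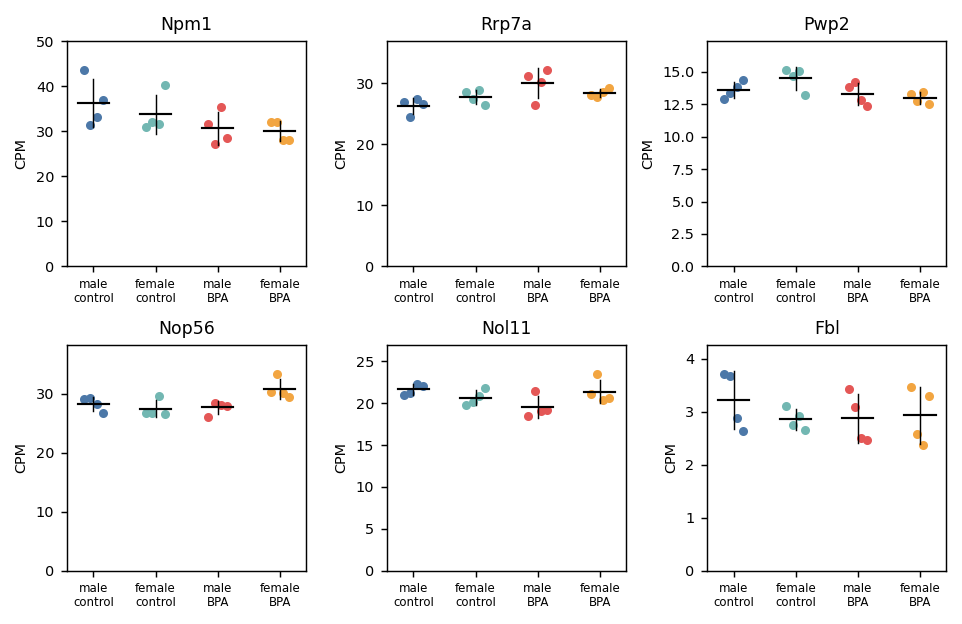
CPM of 6 members in each library of the 4 groups, with group mean (horizontal line) and SD (vertical line), on axes that start at 0. Rrp7a lies above every control in 3 of 4 BPA males, Nol11 lies below every control in 3 of 4 BPA males, Nop56 overlaps only through female control 3 in females, and Npm1 and Fbl spread most within groups.

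The sexes were then set against each other by testing the difference of the BPA effects, females minus males. No member was called by limma-voom, and no gene of 16339 (0%). At an unadjusted p under 0.05 there were 2 members against 4.72% of all genes, and likewise 2 with the mean-variance trend, which called 0. That count was 5 without male BPA 2, and 0 both without male BPA 1 and with no filter on low counts. The 9 precursor markers were all on the higher side in the same contrast (median 0.54, 5 with an unadjusted p under 0.05), and their part in the values of the members was not tested. Nop56 differed by 0.20 ± 0.08 (p 0.0249), from -0.03 in males to 0.17 in females. Nol11 differed by 0.19 ± 0.09 (p 0.0462), from -0.14 to 0.05. Nol10 was at -0.16 ± 0.09 and Utp3 at -0.14 ± 0.07. The limma-voom adjusted p was 0.999 for each of these 4. The estimates had the same sign in both sexes for 21 of the 38 members (55.26%), beside 54.39% of all genes. For 23 members the interval of the difference lay within the 1.25 bound, as for 24.8% of all genes, so a sex difference of that size is less closely bounded than the effect itself.

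**Figure D5:**
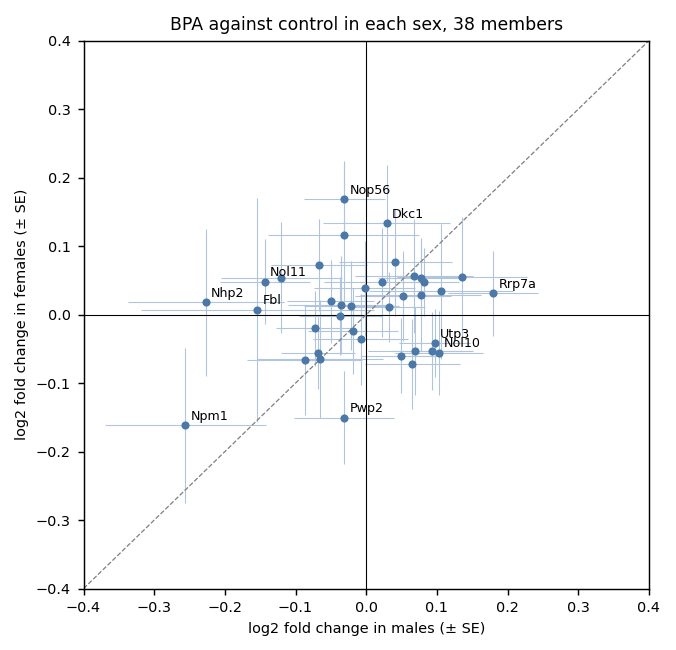
Log2 fold change of BPA against control in males (horizontal) and in females (vertical) for the 38 members, with SE on both axes and a dashed line of equality. Members sit around 0 in both directions, with Npm1 low in both sexes and Nop56, Nol11 and Nhp2 off the line.

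Without BPA, the members did not separate by sex. In control females against control males, limma-voom called 0 of 38 members, where it called 9 of 16339 genes (0.0551%), and 0 members had an unadjusted p under 0.05, against 2.91% of all genes. The mean-variance trend gave 0 for both counts as well. Some marker lists did differ in direction between the control sexes, without a called gene. In females erythroid markers were higher in 5 of 5 (median 0.75, 3 with an unadjusted limma-voom p under 0.05). Microglia markers were higher in 12 of 12 (0.61, 1 with such a p) and precursor markers lower in 9 of 9 (-0.21, 1 with such a p). Myelinating markers were near even, with 6 of 10 higher (0.017). The part of these markers in the values of the members was not tested. The members split into 19 higher and 19 lower in females, from -0.16 to 0.10. Heatr1, a HEAT-repeat subunit of UTP-A, was at 0.09 ± 0.06, but at 0.04 without male control 1 and 0.06 without female control 2. Pwp2 was at 0.09 ± 0.07, at 0.06 without male control 1 and at 0.13 without female control 4. Pdcd11 was at -0.08 ± 0.07. Dcaf13 was at 0.07 ± 0.06, and at 0.02 without male control 2. Dkc1, which is X-linked, was at 0.003 ± 0.09.

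Other steps of ribosome production were described by list, over both sexes, and no gene of these lists was called. Of 28 other small subunit factors, 12 were higher and 16 lower (median log2 fold change -0.0074), with values from -0.15 to 0.16. At an unadjusted limma-voom p under 0.05, 3 were higher and 2 lower, where 7.69% of all genes passed in either direction. Tsr1, a late assembly factor, was at -0.14 ± 0.05 and Riok2, an atypical kinase of late small subunit maturation, at -0.15 ± 0.06, with limma-voom adjusted p-values of 0.540 and 0.544. Of 17 genes for RNA polymerase I and its factors, 7 were higher and 10 lower (median -0.0063), with Taf1b at -0.10 ± 0.05 and Polr1e at -0.11 ± 0.06. Of 30 large subunit factors, 14 were higher and 16 lower (median -0.0034). Among them Nvl, an ATPase of large subunit assembly, stood at 85.2 ± 11.01 CPM in controls and 69.8 ± 13.97 with BPA (SD, n = 8 each), a log2 fold change of -0.30 ± 0.11 with an adjusted p of 0.519, and Rsl1d1 was at 0.08 ± 0.03.

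Regulators of ribosome production gave no called gene either. The Myc family and its partners had 5 of 10 genes higher, with Mycn at -0.24 ± 0.11 and Mycl at -0.21 ± 0.11. The p53 response can follow disturbed ribosome assembly. Its list, which holds Trp53 itself and genes of its pathway, had 6 of 12 higher. In it Trp53 was at 0.11 ± 0.05 and Sesn1, a stress-induced sestrin, at 0.21 ± 0.10 (limma-voom adjusted p 0.631 and 0.649). Of 14 cell cycle genes 6 were higher and 8 lower, with Mcm6 at -0.17 ± 0.12 and Ccnb1 at 0.20 ± 0.17.

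Several marker lists had larger medians than the members over both sexes, without a called gene. All 12 microglia markers were on the higher side with BPA (median 0.25, 0.39 in males and 0.06 in females), as were all 10 immediate early genes (0.29) and 5 of 6 ependymal and choroid plexus markers (0.40). Mural and fibroblast markers were higher in 7 of 7 (median 0.43), with 7 of 7 higher in males (0.78) and 3 of 7 in females (-0.05). Their sum was 114 CPM in male BPA 2 and between 23.02 and 72.18 CPM in the other libraries. All 7 markers of committed and newly formed oligodendrocytes were on the lower side (median -0.13), and 8 of 9 precursor markers were (-0.05), an average of the lower values in males and the higher ones in females given above. Summed microglia markers ran from 597.1 to 2087 CPM in controls and from 737 to 2574 CPM in BPA libraries, so the groups overlapped. The part of such differences in the values of the members over both sexes was not tested.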

How the data were processed

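Poly(A) libraries that keep strand were made from 100 ng of RNA each, per the labels' protocols. The tools named are HTSeq 0.6.1p1, STAR 2.5.3a, DESeq2 1.16.1 and bcl2fastq 2.20.0.422, with build mm39, per the submitters' processing notes. The authors deposited whole-number counts per gene, beside normalized values equal to the counts divided by a size factor and the same values per kb of median transcript length. The automated unit check could not address these columns, so their unit rests on the values alone. For that reason the planned quasi-likelihood test of edgeR was not run, and limma-voom took its place.

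A gene was tested with at least 10 counts in as many libraries as the smallest group needs and 15 overall; 16339 genes and 99.947% of counts remained. Libraries were scaled by TMM, written in R 4.3.3. limma 3.58.1 fitted 1 mean per group over 16 libraries, and two-sided p-values were adjusted by Benjamini-Hochberg over all genes (threshold 0.05). Intervals are 95%. A count of 0 would allow up to 3 counts, or 0.0707 to 0.127 CPM, by counting error only. The steps were tested on simulated data. The outcome is not given here, so no power to detect changes as small as those of the members is claimed. The members and gene lists were chosen with earlier results of these data known. Members were named for the smallest p-values in each comparison or the extreme levels per length, and Fbl, Nop56, Nop58, Dkc1, Ncl and Npm1 were always named. From every other pathway list the 2 genes with the smallest p were named. Gene names and transcripts are from GENCODE M21.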

Additional observations from a re-analysis of the deposited data

Results flagged for a closer look

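Each member was checked in each group of 4 libraries for 1 library far from the other 3 (Dixon's criterion at 95%). Of 152 such checks 9 stood out (5.92%), where chance gives about 1 in 20. High libraries were found for 6 members. Utp6 was at 37.95 CPM in male BPA 1 (others 36.17 to 36.36), Tbl3 at 23.65 in male control 3 (20.92 to 21.25) and Wdr36 at 21.01 in female control 3 (18.27 to 18.66). Nop56 was at 29.62 in female control 3 (26.52 to 26.78), Gar1 at 10.7 in female BPA 1 (7.839 to 8.26) and Npm1 at 40.26 in female control 4 (30.98 to 32.14). Low libraries were found for 3 members. Utp18 was at 20.57 CPM in female BPA 3 (21.86 to 22.12), Nop14 at 17.59 in male BPA 3 (18.87 to 19.12) and Dcaf13 at 18.06 in male control 2 (20.83 to 21.16). The 9 values fall in 8 libraries, and only female control 3 held more than 1. The values of Nop56 and Npm1 bear on comparisons given above, since each lies in the control group with which BPA females were compared.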

How the results depend on the processing

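The count of members called was 0 in each of the 5 comparisons under every alternative that was run. Median-of-ratios scaling moved the median of all genes by at most 0.0077 (log2). Over all genes, BPA calls in both sexes, 3 in number, became 0 with a stricter filter (1 CPM in 8 libraries) and 0 without male BPA 2 and female BPA 1, and ran from 0 to 5 when 1 library was left out. In males the 1 called gene became 2 with no filter, 0 with the stricter filter, 3 with the mean-variance trend (chosen after seeing the data), 0 without both libraries and 4 with males alone, and ran from 0 to 3 with 1 library left out. In females 0 became 2 with no filter and 1 with females alone. With 1 library left out, calls for the sex difference of the effect ran from 0 to 3, and those between control sexes, 9 in number, from 4 to 9. The latter were 13 with no filter, 10 with the trend, and 7 with the stricter filter or with controls alone. The members' median in males, -0.0051, was 0.0413 without both libraries and ran from -0.0122 to 0.0324 with 1 left out. Nop58, at -0.0329, changed sign to 0.0081 without female BPA replicate 3 and ran from -0.0578 to 0.0081 over the libraries left out; no other named member changed sign. The cause of these shifts was not tested. With the replicate number as a block, BPA calls over all genes in both sexes were 0; same-numbered libraries correlated between -0.2996 and 0.3042 over 24 pairs, and 4 of 16 correlated best with their own number. DESeq2 and edgeR, planned as alternatives, were not run, and for the sex difference a fit on part of the libraries does not exist.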
